A study of Caenorhabditis elegans with 2 samples.

Results

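The genes described here are the nuclear hormone receptor genes of Caenorhabditis elegans, chosen by name: all protein-coding genes of the Ensembl annotation whose symbol is nhr- followed by a digit. The rule found 269 such genes among 19985 protein-coding genes. Chromatin immunoprecipitation followed by sequencing (ChIP-seq) located LET-607, a basic leucine zipper transcription factor of the CREB3 type, in a single group with 2 biological replicates. The worms were of strain YL651, which carries the let-607 allele tm1423, the unc-119 allele ed3 and the integrated array vrIs121, a LET-607 fosmid with a wild-type unc-119 marker. The labels give a C-terminal tag of GFP and FLAG, whole mixed-sex young adults at 49.5 hours after a starved first larval stage, sonication to 200 to 800 bp, and an antibody against GFP. All tissues were pooled, so a region may come from any cell type, and both replicates share 1 transgenic strain. No second condition exists in the series.

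Nuclear hormone receptors are transcription factors that bind DNA through a zinc-finger domain, and in animals many are switched by lipids, steroids or other small ligands. The family is greatly enlarged in nematodes, mostly through duplication of an ancestor related to the vertebrate receptor HNF4, and most of these copies have no assigned function. Among the better known worm members, NHR-49 governs fat use and the fasting response, NHR-80 the fatty acid desaturases, NHR-23 and NHR-25 moulting, and NHR-8 the response to toxins and sterols.

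LET-607 regions lay at the promoters of 8 receptor genes and in introns of 9, with nhr-31 in both counts. A gene was counted as bound when the summit of a region that passed the authors' reproducibility threshold lay no more than 1000 bp upstream or 200 bp downstream of one of its annotated coding-transcript starts. Of the 269 receptor genes, 109 had a candidate region in that window and 8 were bound, which is 7.34% of the candidates (95% Wilson interval 3.77 to 13.8). Over all protein-coding genes 958 of 7766 candidates were bound, or 12.3%, a share that lies inside the interval of the receptor genes. The 8 were nhr-35, nhr-1, nhr-31, nhr-255, nhr-49, nhr-68, nhr-47 and nhr-135. A further 9 thresholded summits lay in introns of 8 receptor genes outside the promoter window, so 16 genes (5.95%) had at least 1 of 17 thresholded regions, against 5.85% of all protein-coding genes. Intervals cover counting error only, and neighbouring genes can share a region.

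The sequences that follow hold the summit and 50 bp on each side of it, from the plus strand of WBcel235, the RefSeq copy of the ce11 assembly. Capitals in the first 7 mark matches, on either strand, to the motifs searched. These were TGACG as the core of the CRE site of CREB factors, ACGT as the core of many leucine zipper sites, the palindrome CACGTG, the element TGACGTGG known from the unfolded protein response, the full CRE palindrome TGACGTCA, the 8-base element AGACGCAG, which was frequent at LET-607 summits in an earlier look at these data, the GATA-type element TGATAA and the receptor hexamer AGGTCA. The first 3 sequences are the promoter regions that ranked within the first 1488 in both replicates. The strongest, at nhr-35, holds none of these motifs.
nhr-35, chrX:4532336-4532436: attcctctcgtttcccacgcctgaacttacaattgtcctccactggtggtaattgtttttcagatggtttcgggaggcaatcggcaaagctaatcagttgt
nhr-1, chrX:17513698-17513798: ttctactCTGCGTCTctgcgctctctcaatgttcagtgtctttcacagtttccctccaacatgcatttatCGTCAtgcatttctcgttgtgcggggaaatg
nhr-31, chrIV:8026481-8026581: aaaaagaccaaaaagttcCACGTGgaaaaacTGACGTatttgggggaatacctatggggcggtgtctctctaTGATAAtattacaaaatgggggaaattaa

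The next 3, with nhr-31 above, are the windows that hold the palindrome CACGTG, known as an E-box or G-box. Those of nhr-68 and nhr-135 are promoter regions and that of nhr-34 is intronic.
nhr-68, chrV:11572961-11573061: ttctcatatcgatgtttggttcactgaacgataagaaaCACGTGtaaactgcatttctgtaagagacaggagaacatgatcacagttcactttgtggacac
nhr-135, chrV:7093927-7094027: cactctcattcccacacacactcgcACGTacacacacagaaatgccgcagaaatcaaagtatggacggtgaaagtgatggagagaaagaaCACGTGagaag
nhr-34, chrIV:9671213-9671313: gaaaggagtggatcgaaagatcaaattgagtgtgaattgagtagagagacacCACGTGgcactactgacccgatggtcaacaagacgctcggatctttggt

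The last 3 are the strongest intronic region, at nhr-27, and the regions of nhr-255 and nhr-17, whose windows run into a tRNA gene. In these last 2 the capitals mark the bases annotated as tRNA gene, and neither holds a motif searched here.
nhr-27, chrX:12759779-12759879: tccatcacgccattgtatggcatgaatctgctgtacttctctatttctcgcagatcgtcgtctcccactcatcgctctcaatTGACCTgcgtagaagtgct
nhr-255, chrX:15741999-15742099: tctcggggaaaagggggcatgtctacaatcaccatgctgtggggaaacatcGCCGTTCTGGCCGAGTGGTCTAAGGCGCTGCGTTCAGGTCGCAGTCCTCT
nhr-17, chrX:12665160-12665260: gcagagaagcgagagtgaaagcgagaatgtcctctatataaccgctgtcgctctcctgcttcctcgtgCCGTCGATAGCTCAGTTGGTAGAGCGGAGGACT

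The strength of a region is given by the signal value that the authors' peak caller wrote for it; no source used here gives its formula. The replicate lists are on their own scales, so ranks within each list are given beside the values. Across the thresholded list the signal ran between 110.8 and 6859. The 8 bound receptor genes ran between 122 and 275 with a median of 142.4, against a median of 173.9 over all 958 bound genes, a ratio of 0.819. With the values of each replicate the ratio was 0.865 in replicate 1 and 0.896 in replicate 2. It was 1.06 when the 1488 strongest regions of replicate 1 alone defined the bound genes. That list held 7 receptor genes and kept only 4 of these 8, so it does not cover the same receptors. The candidate regions of the 109 receptor genes had a median pooled signal of 53.0, and those of all 7766 candidate genes a median of 52.0. The depth of the libraries is unknown, since the files hold no read counts.

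The region of nhr-35 was the strongest at any receptor promoter. It lay at chrX:4532184-4532587, with its summit 305 bp upstream of the nearest nhr-35 start and in the promoter window of no other protein-coding gene. Its pooled signal was 274.8 (rank 251 of 1488), with 129.9 in replicate 1 and 161.5 in replicate 2. The region ranked 232 in replicate 2 and 7 places lower in replicate 1, the closest agreement in rank among the 8.

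The regions of nhr-1 and nhr-31 followed at nearly equal strength. That of nhr-1 lay at chrX:17513546-17513949, 315 bp upstream of a start, with a pooled signal of 180.8 and values of 90.1 in replicate 1 and 92.3 in replicate 2 (ranks 524 and 664). That of nhr-31 lay at chrIV:8026329-8026732, with a pooled signal of 179.5 and values of 103.9 in replicate 1 and 72.8 in replicate 2 (ranks 380 and 1077). NHR-31 is an HNF4-type receptor needed for growth of the tubular excretory cell and for its vacuolar ATPase genes. The nhr-31 summit lay 494 bp upstream of an internal start and, at the same time, in intron 1 of 7 of the longest nhr-31 transcript, an intron of 3278 bp. These 3 regions were the only ones at a receptor promoter to rank within the first 1488 in both replicates.

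The other 5 bound promoters ranked within the first 1488 in 1 replicate only, and nhr-255 and nhr-49 missed that cut narrowly in the other. The region of nhr-255 lay at chrX:15741847-15742250 with a pooled signal of 143.4, and had 93.0 in replicate 1 (rank 482) and 60.2 in replicate 2 (rank 1627). Its summit was 561 bp upstream of the nhr-255 start and 1 bp from a tRNA gene. Of all 1488 thresholded regions, 143 had a summit within 500 bp of a tRNA gene, and whether the tRNA gene or nhr-255 carries this region was not tested.

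The remaining 4 were higher in replicate 2. NHR-49, the HNF4-type regulator of fat use, had its gene's region at I 9869081 to 9869484, 368 bp upstream of a start. The pooled signal at nhr-49 was 141.4, with 55.6 in replicate 1 (rank 1584) and 86.8 in replicate 2 (rank 759). The gene nhr-68, whose product controls the propionate shunt together with NHR-10, had a region at V 11572809 to 11573212 with 128.9 in the pooled list, 45.8 in replicate 1 and 85.4 in replicate 2. That summit was 429 bp upstream of nhr-68 but 21 bp from the start of the neighbouring gene H12C20.7, and the nearest-start assignment gives it to that gene.

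The last pair lay on chromosome V as well. The region of nhr-47, at V 5505029 to 5505432, had a pooled signal of 125.7, with 43.5 in replicate 1 and 78.1 in replicate 2. Its summit was 22 bp upstream of nhr-47, and the promoter window of dnj-19, which encodes a DnaJ-type co-chaperone, also held it. The region of nhr-135, at V 7093775 to 7094178, had 121.6 in the pooled list, 42.2 in replicate 1 and 86.8 in replicate 2, with its summit 207 bp upstream. In replicate 1 the regions of nhr-68, nhr-47 and nhr-135 ranked only 2698, 3131 and 3419, against 787, 931 and 758 in replicate 2. All 3 bound receptor genes of chromosome V therefore rest on replicate 2: from the 1488 strongest regions of replicate 1 alone, none of the chromosome V receptors was bound. That list also lost nhr-49, and it added nhr-3, nhr-41 and nhr-80 to nhr-1, nhr-31, nhr-35 and nhr-255. From replicate 2 alone nhr-255 was lost and nhr-66 added.

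**Figure D1:**
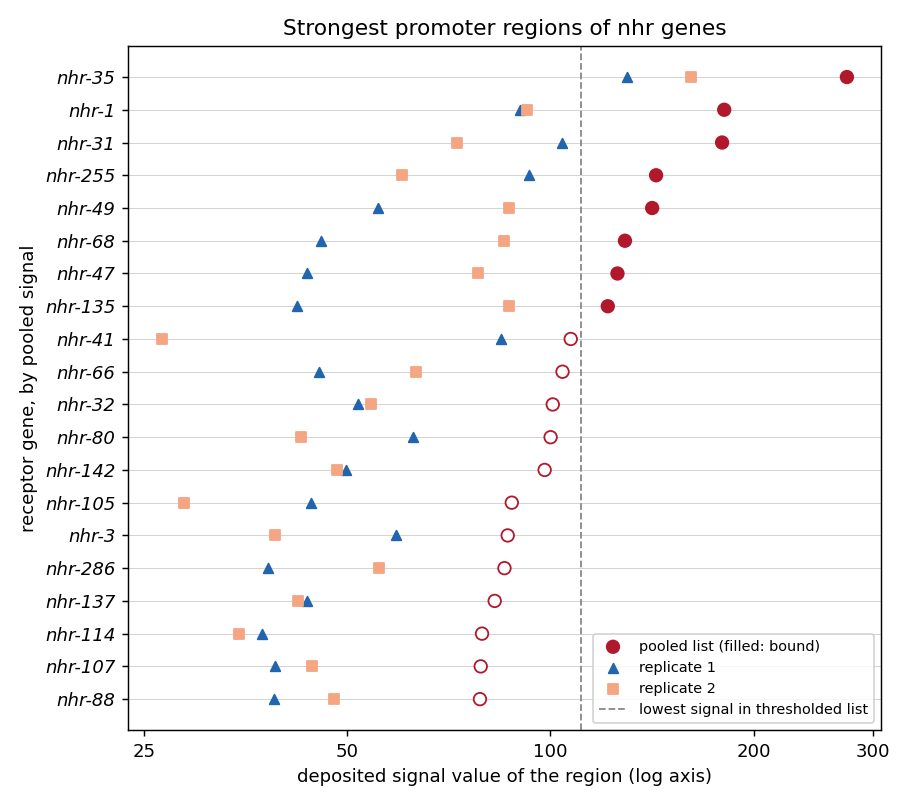
Deposited signal (log axis) of the strongest candidate promoter region of the 20 receptor genes with the highest pooled signal, in the pooled list and in each replicate; the dashed line is the lowest signal in the thresholded list, 110.8. The 8 bound genes lie between 122 and 275, and nhr-41, just left of the line at 107, is split between the replicates.

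Several receptors stopped just short of the threshold. The highest was nhr-41, a relative of the vertebrate receptors TR2 and TR4, with a pooled signal of 107.2 (rank 1605). Its candidate region had 84.5 in replicate 1 (rank 613) but 26.6 in replicate 2 (rank 14529), the widest disagreement among the strongest candidates. It was followed by nhr-66, whose product acts with NHR-49 on lipid genes, at 104.2, with 45.4 in replicate 1 and 63.1 in replicate 2. Next came nhr-32 at 100.8, with 51.9 in replicate 1 and 54.3 in replicate 2. The promoter candidate of nhr-80, at 100.05, had 62.7 in replicate 1 and 42.6 in replicate 2. The lowest bound promoter was that of nhr-135, at 121.6. A candidate region in the promoter window was present at 40.5% of the receptor genes, against 38.9% of all protein-coding genes.

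By class, the bound genes fell among the HNF4-type receptors listed for known roles and the large remainder, which was not sorted by type. Of 16 HNF4-type receptors listed for known metabolic or stress roles, 13 had a candidate region and 3 were bound, nhr-31, nhr-49 and nhr-68, or 23.1% (8.18 to 50.3). Their candidates had a median of 2 annotated starts and a searched window of 2402 bp, against 1 start and 1201 bp over all candidate genes. Of the 242 remaining receptors, 87 had a candidate region and 5 were bound (5.75%, 2.48 to 12.8). The intervals of both classes hold the 12.3% of all genes.

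None of the receptors conserved outside nematodes was bound at its promoter. Of 11 listed, 9 had a candidate region and 0 were bound, which with so few genes allows up to 29.9%. These 9 had a median of 3 annotated starts and a searched window of 2402 bp, against 1 start and 1201 bp over all candidate genes. Besides nhr-41, their pooled signals were near those of other candidates: the median of the 9 was 53.9, against 52.0 over all candidate genes. The moulting regulators nhr-23, a relative of ROR, and nhr-25, a relative of SF-1, stood at 39.6 and 39.2, and nhr-6, of the NR4A type, at 34.6. The xenobiotic receptor nhr-8 stood at 54.4, nhr-85 at 53.9, nhr-91 at 43.9, nhr-239 at 61.3 and nhr-48 at 63.6. The genes nhr-67, a relative of tailless, and nhr-111 had no candidate region. From the 1488 strongest regions of replicate 1 alone, 1 conserved receptor, nhr-41, was bound.

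Other transcription factor families named by a common prefix gave similarly small counts. Homeobox genes named ceh- had 2 of 24 candidates bound (8.33%, 2.32 to 25.8), and helix-loop-helix genes named hlh- had 1 of 5. Leucine zipper genes named zip- had 4 of 8 bound (21.5% to 78.5%), an interval that lies above that of the receptor genes, though no test of this difference was made. The zip- candidates had a median of 2.5 annotated starts and a searched window of 2463 bp, against 1 start and 1201 bp over the receptor candidates. The bound zip- genes were zip-2, zip-10, zip-11 and zip-12.

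**Figure D2:**
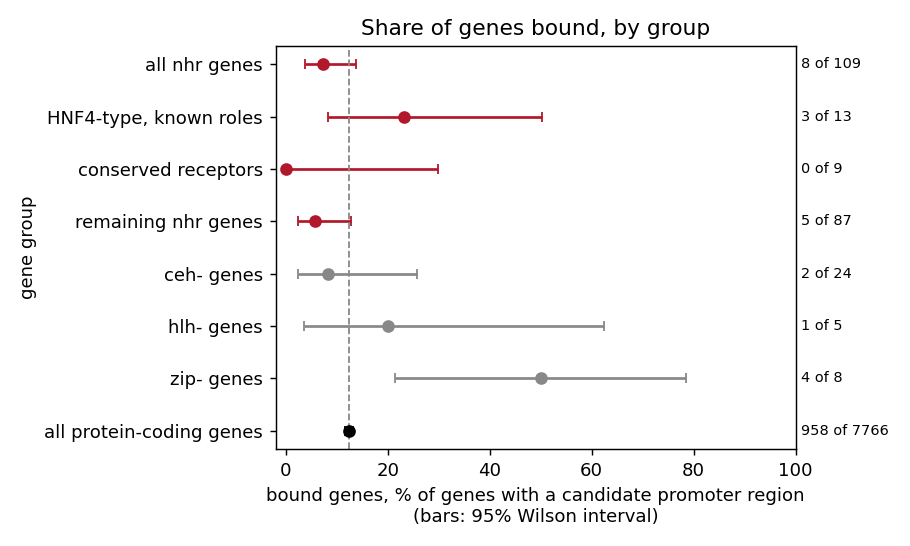
Bound genes as a percentage of genes with a candidate promoter region, with 95% Wilson intervals and counts, for receptor genes and their classes (red), other transcription factor families (grey) and all protein-coding genes (black, dashed line at 12.3%). The intervals of the receptor genes and of each of their classes hold the dashed line.

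Lists of other receptors, partners and targets were short, and no test of their bound shares was made. The coregulators had 2 of 3 candidates bound (20.8% to 93.9%), against 12.3% of all candidate genes. With 3 candidates, in a list chosen with earlier results of these data known, this does not set them apart. Their candidates had a median of 4 annotated starts and a searched window of 1244 bp, against 1 start and 1201 bp over all candidate genes. Of 5 receptors with another name, only sex-1 had a candidate region, at 40.5 and unbound, while daf-12, fax-1, odr-7 and unc-55 had none. Among 4 coregulators 2 were bound: cbp-1, the CBP/p300 acetyltransferase gene, at 399.7 (rank 146), and din-1, which encodes a corepressor of DAF-12, at 307.4 (rank 212). Both were stronger than the region of any receptor promoter. The Mediator subunit gene mdt-15, a coactivator of NHR-49, had a candidate at 66.3 below the threshold, and gei-8 had none. Of 6 genes for the synthesis of dafachronic acid, the ligand of DAF-12, or acting on its sterol precursors, 2 had a candidate (dhs-16 at 51.0 and emb-8 at 60.9) and 0 were bound, which allows up to 65.8%. Of 5 NHR-49 targets in lipid metabolism, 4 had a candidate and 0 were bound, which allows up to 49%, with acs-2 at 77.4, fat-6 at 69.6, fat-5 at 40.9 and fat-7 at 36.9.

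The receptor genes are spread unevenly over the chromosomes. Chromosome V carries 167 of the 269, and 59 of these (35.3%) had a candidate region in the promoter window, against 31.8% of all genes on V. Of these 59 candidates 3 were bound (5.08%, 1.74 to 13.9), against 8.38% of all candidate genes on V, the lowest share of any chromosome. On X, 17 of 23 receptor genes had a candidate region (73.9%), against 44.1% of all genes on X, and 3 were bound (17.6%, 6.19 to 41), against 14.9% of all. Chromosomes I and IV had 1 bound receptor each, out of 8 and 12 candidates, and chromosomes II and III had 0 of 6 and 0 of 7.

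With introns included, the share of receptor genes with a region was higher on X than on the autosomes. The plan counted promoters by chromosome and introns separately, and did not list this joined count. No test of this difference between X and the autosomes was made, and the intervals cover counting error only. On X, 7 of 23 receptor genes had a thresholded summit at the promoter or in an intron (30.4%, 15.6 to 50.9), against 8.53% of all genes on X. On the autosomes it was 9 of 246 (3.66%, 1.94 to 6.81), against 5.43% of all autosomal genes, and over the genome 16 of 269 (5.95%), against 5.85% of all. Leaving out regions whose summit lay 500 bp or less from a tRNA gene, which removes nhr-255 and nhr-17, the share on X was 5 of 23 (21.7%), against 7.18% of all genes on X. With the 1488 strongest regions of replicate 2 alone it was 4 of 23 (17.4%), against 7.95%, and with those of replicate 1 alone 7 of 23, against 8.02%. Gene length also differed between these groups. The median receptor gene spanned 4483 bp on X and 2250.5 bp on the autosomes, against 2548 bp and 1964 bp over all genes. The 16 receptor genes with a region had a median of 4943 bp, 4856 bp on X and 5030 bp on the autosomes. For all genes with a region the median was 3237 bp. The part of gene length in the share on X was not tested.

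**Figure D3:**
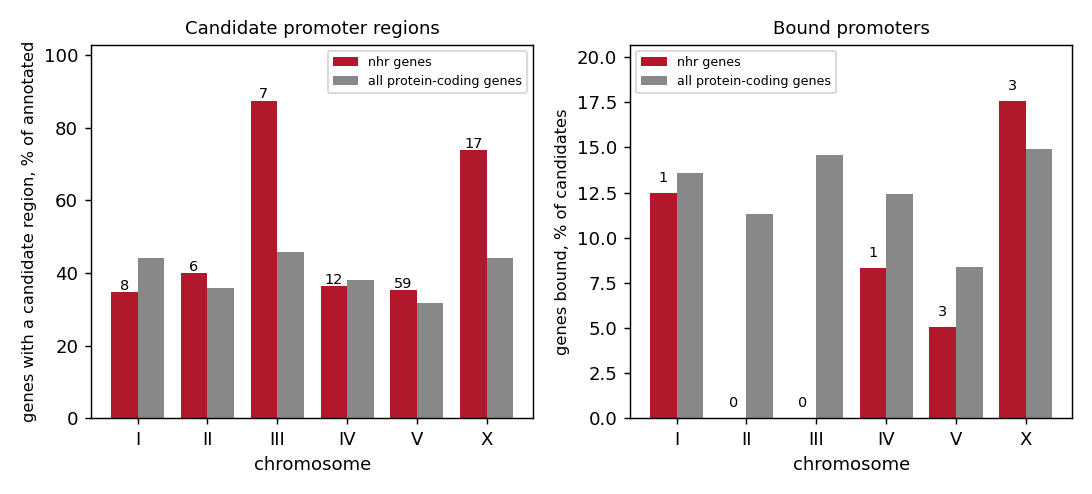
Receptor genes (red) beside all protein-coding genes (grey) by chromosome, as the percentage of annotated genes with a candidate promoter region (left) and of candidates bound (right), with the number of receptor genes above each red bar. On X 17 of 23 receptor genes were candidates and 3 were bound, and on V 59 of 167 were candidates and 3 were bound.

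Introns of receptor genes held 10 thresholded summits in 9 genes, counting the nhr-31 region. They came out of 165 candidate summits in these introns, so 6.06% passed the threshold, against 4.29% of the 8696 candidate summits in introns of all protein-coding genes. Per Mb of intron this made 20.2 thresholded summits in receptor genes, against 11.2 in all genes. The first value rests on 10 summits, and no interval was computed for it. Candidate summits were also denser in receptor introns, at 334 per Mb against 262. Introns of chromosome X held 4 of the 10, IV held 3, II held 2, III held 1, and I and V held 0. Over all genes, V had 47 of 373 intronic thresholded summits, the fewest of any chromosome. The 10 in receptor introns had a median signal of 163.9, against 151.3 for all 373.

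The strongest intronic region was in nhr-27, at chrX:12759627-12760030, with a pooled signal of 235.6, 90.5 in replicate 1 (rank 518) and 142.5 in replicate 2 (rank 286). It lay in intron 1 of 3, which spans 100912 bp in the longest transcript, and 48420 bp downstream of the nearest nhr-27 start. The closest start of any protein-coding gene was that of cept-1, a choline or ethanolamine phosphotransferase gene, 2249 bp away and inside the same intron. The region of nhr-17 at chrX:12665008-12665411 had a signal of 217.4, with 118.2 in replicate 1 and 98.4 in replicate 2. It lay in intron 7 of 8, with its summit 18 bp from a tRNA gene inside that intron. The closest protein-coding start was that of nlp-76, 1307 bp away, against 2644 bp for nhr-17 itself.

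Intron 2 of nhr-19, of 4213 bp on chromosome II, held a pair of regions of nearly equal strength. The region at chrII:9601102-9601505 had a pooled signal of 215.5, with 94.2 in replicate 1 and 125.4 in replicate 2. That at chrII:9603376-9603779 had 212.3, with 124.0 in replicate 1 and 84.0 in replicate 2, so the replicates ordered them differently. The summit of the first was closer to the start of mrpl-53, 3682 bp away, than to that of nhr-19, 3946 bp away. At the start of nhr-19 the candidate region reached only 70.3. This was the only receptor intron with more than 1 thresholded summit.

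The other intronic regions were weaker. That of nhr-34, in intron 2 of 11 at chrIV:9671061-9671464, had 148.3 in the pooled list, 67.5 in replicate 1 and 76.1 in replicate 2. That of nhr-48, a receptor of the DAF-12 and NHR-8 group, lay in intron 1 of 15 with 135.7, and 64.5 in replicate 1 and 62.5 in replicate 2. The nhr-76 summit had 125.2, with 62.9 in replicate 1 and 63.3 in replicate 2. It fell in intron 7 of 8, which is only 47 bp long, so its region of 404 bp reaches well into the exons. NHR-76 acts in the intestine in neurally driven fat loss. The regions of nhr-3 (115.1) and nhr-80 (113.9) lay in intron 5 of 6 of their genes, close to the threshold. In nhr-3 the replicates had 63.6 and 51.5, and in nhr-80 they had 59.6 and 49.7 (replicate 1 first in both). Both genes also had promoter candidates below the threshold, of 86.4 and 100.05.

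Both replicates placed most of the intronic regions high. All 17 regions had a matching candidate in both replicates, which their derivation from both lists favours. Of the 9 intronic regions, 6 ranked within the first 1488 of both replicates and the other 3 missed only in replicate 2. Of the 8 promoter regions 3 did so, 4 missed in replicate 1 and 1 missed in replicate 2.

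**Figure D4:**
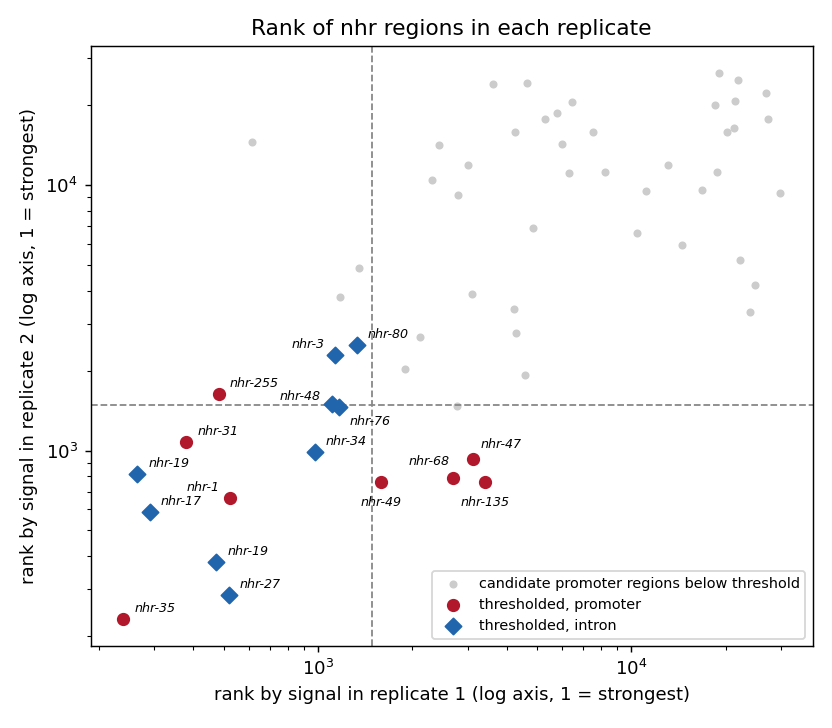
Rank by signal in replicate 1 and in replicate 2 (log axes, 1 is the strongest) of the 17 thresholded regions at receptor promoters (circles) and introns (diamonds), with 43 candidate promoter regions below the threshold that were found in both replicates (grey); dashed lines mark rank 1488. The regions of nhr-68, nhr-47 and nhr-135 lie right of the vertical line, at ranks 2698 to 3419 in replicate 1, and below the horizontal line.

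All 8 promoter summits lay upstream of the receptor start, from 22 to 561 bp away with a median of 341.5 bp. Over all bound genes 884 of 958 were upstream, with a median of 268 bp. The start of the receptor was the nearest start for 7 of the 8, nhr-68 being the exception. The summit windows had a median GC content of 46.5%, and so did the windows of all 1488 regions.

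The palindrome CACGTG stood in 4 of the 17 windows (23.5%, 9.56 to 47.3), against 116 of 1488 windows of all thresholded regions (7.80%). They were the windows of nhr-31, nhr-68, nhr-135 and nhr-34 shown above. In nhr-34 the match lay at IV 9671265 to 9671270, with its centre about 5 bp from the summit, and in nhr-68 at V 11572999 to 11573004. In windows of the same length lying 300 bp to the left, 0 of 17 windows held it, against 25 of 1488 over all regions. The shorter ACGT, which lies within CACGTG, was in 7 of 17 (41.2%, 21.6 to 64), against 34.1% of all, and TGACG in 5 of 17 (29.4%, 13.3 to 53.1), against 21.8%. These shares moved with the regions used. Among the 7 receptor sites in the stronger 50% of the thresholded regions, CACGTG was in 1 (14.3%, against 9.68% of all such regions) and ACGT in 2 (28.6%, against 39.5%). Among 17 receptor sites taken from the 1488 strongest regions of replicate 1 alone, CACGTG was in 2 (11.8%, against 7.39% of all such regions). ACGT was there in 3 (17.6%, against 31.5%) and TGACG in 3 (17.6%, against 20.5%), so for both the receptor share then lay below that of all regions. Among 15 sites from replicate 2 alone, CACGTG was in 4 (26.7%, against 8.06%).

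The longer elements were rare or missing in these windows. TGACGTGG and TGACGTCA were in 0 of 17 each, which allows up to 18.4%, against 1.88% and 0.739% of all windows. AGACGCAG was in 2, those of nhr-1 and nhr-80 (11.8%, against 5.58%), and TGATAA in 2, those of nhr-31 and nhr-76 (11.8%, against 15.5%). AGGTCA, the hexamer that many nuclear receptors recognise, was in 1, that of nhr-27 (5.88%, against 2.28%). The windows of nhr-35, nhr-255 and nhr-17 held 0 of the 8 motifs. A match says that these letters are in the window, not that LET-607 binds them.

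**Figure D5:**
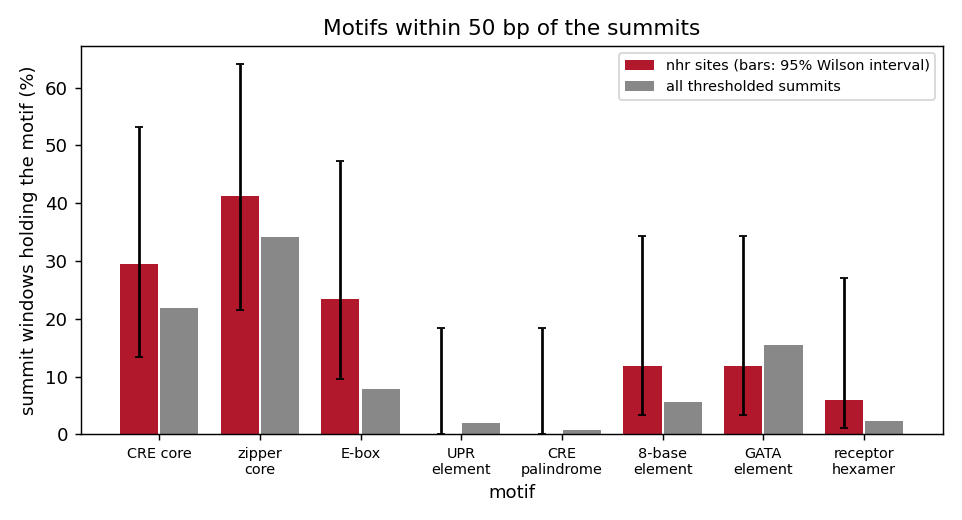
Percentage of windows reaching 50 bp to each side of the summit that hold each motif, for the 17 regions at receptor genes (red, with 95% Wilson intervals) and all 1488 thresholded regions (grey); the CRE core is TGACG, the zipper core is ACGT, the E-box is CACGTG, the UPR (unfolded protein response) element is TGACGTGG, the CRE palindrome is TGACGTCA, the 8-base element is AGACGCAG, the GATA element is TGATAA and the receptor hexamer is AGGTCA. The E-box was in 23.5% of the receptor windows, against 7.80% of all.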

How the data were processed

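The authors deposited region lists on ce11 for each of 2 replicates, for the pooled replicates, and for the list thresholded by the irreproducible discovery rate, derived from the other 3 lists per the text deposited with them. Each region carries the signal and a −log10 q-value as deposited by the authors. No source used here names the aligner or the peak caller. The files hold no counts, so depth is unknown, and the control was not analysed here.

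Starts of coding transcripts, exons and tRNA genes came from Ensembl release 115, and sequence from the RefSeq copy of WBcel235, which has the ce11 coordinates. Regions were assigned with Python 3.11.15 and pandas 2.3.3, and intervals computed with scipy 1.17.1. Positions are 1-based. A replicate region matched when it held the pooled summit, and the strongest was taken. Assignment, intron calls and motif matching were checked on made-up data.

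No test was made: the series has a single group, and counts over receptor genes stand beside the same counts over all genes. The receptor genes and all lists were chosen with earlier results of these data known. Every bound receptor, every receptor with an intronic summit and the 4 strongest unbound ones are named; other names came from the lists. Alternatives changed the threshold, the window, the assignment, the summit window, the matching rule and the replicates used. Those on tRNA genes, on non-coding isoforms and on receptor genes with a region at the promoter or in an intron were chosen after the data were seen.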

Additional observations from a re-analysis of the deposited data

How the results depend on the processing

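No paired analysis was possible because there is 1 group and nothing to pair. Of the alternative values, 93 stayed within the counting interval, 1.5 times the main count or the replicate SD, and 18 did not; the cause was not tested. The bound share of 7.34% was 2.75% with the stronger 50% of the thresholded regions (nhr-1, nhr-31 and nhr-35, against 7.19% of all candidate genes) and 2.97% of all annotated receptor genes (against 4.79%). It was 9.09% with the 500 to 100 bp window (against 13.8%) and 6.94% with the 2000 to 500 bp window (against 12.1%). Leaving out 1 replicate, it was 6.42% without replicate 2 and 7.34% without replicate 1, with 4 of the 8 genes kept in the first and 7 in the second. In every setting run it was below the share of all genes. The settings draw on the same data and are not independent, and the main interval of 3.77 to 13.8 holds the 12.3% of all candidate genes. With that stronger 50%, 1 of the listed HNF4-type receptors and 2 of the remaining receptors were bound, 0 on V and 1 on the other autosomes. Introns then held 5 summits. At the promoter or in an intron, 4 receptor genes on X and 2 on the autosomes had a region (17.4% and 0.813%, against 4.47% and 3.09% of all genes). Leaving out 1 replicate gave 0 to 1 conserved receptors, 0 to 3 on V, 7 to 12 intronic summits, 4 to 7 genes on X with a region and ACGT in 17.6% to 46.7% of windows. The ratio of median signal, bound receptors over all bound genes, was 0.819, and 0.753 with the stronger 50%, 0.787 with the 500 to 100 bp window, 0.849 with the 2000 to 500 bp window, and 0.900 to 1.06 leaving out 1 replicate.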
